A study of Mus musculus with 12 samples.

Results

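Wnt ligands, their receptors, their secreted inhibitors and their best known targets were followed in C2C12 myotubes. The set was taken by symbol. It holds each protein-coding gene named Wnt, Fzd, Sfrp, Dkk or Rspo with a number, together with Lgr4, Lgr5, Lgr6, Lrp5, Lrp6, Axin1, Axin2, Nkd1, Nkd2, Lef1, Tcf7, Notum and Znrf3. This gave 54 genes of the 55487 listed: 19 Wnt ligands, 10 frizzled receptors, 2 LRP co-receptors, 4 secreted frizzled-related proteins, 4 Dickkopf antagonists, 4 R-spondins, 3 R-spondin receptors, 6 feedback inhibitors and 2 nuclear factors. C2C12 is a mouse myoblast line that fuses into myotubes once serum is lowered. For both groups, differentiation in 2% horse serum lasted 5 days, and the myotubes then spent 24 h in DMEM with antibiotics and either 4% horse serum (libraries 1 to 6) or 4% STEM (libraries 7 to 12), a cell-free secretome of partially differentiated human pluripotent stem cells. STEM stood in place of the serum, so adding the former and withdrawing the latter cannot be told apart. Total RNA was sequenced after removal of ribosomal RNA and counted per gene, and the labels do not say that libraries of a group came from separate cultures, so p-values measure the spread between these libraries, which may be technical.

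Wnt proteins are secreted lipid-modified ligands that bind a frizzled receptor together with Lrp5 or Lrp6. In the canonical branch, binding halts the Axin complex that marks beta-catenin for degradation, and beta-catenin then joins TCF/LEF factors on its target genes, several of which (Axin2, Nkd2, Notum, Znrf3, Lgr5) feed back on the pathway. Other branches act through cell polarity and calcium. In muscle, Wnt ligands are known from the patterning of the somite, from the activation of satellite cells during regeneration and from the switch of myoblasts from division to fusion.

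The promoters of 4 members that rose with STEM are shown. Axin2 and Nkd2 were taken as genes that feed back on the pathway, and Wnt11 and Wnt9a as the Wnt ligands with the lowest p-values. Each run is the 250 bases before the RefSeq start of the gene on GRCm38.p6, written 5′ to 3′ on the strand of the gene, and capitals mark a match to the TCF/LEF motif, searched on both strands as CTTTG followed by 2 bases that are each A or T.
Wnt11 (chr7:98834862-98835111, plus strand): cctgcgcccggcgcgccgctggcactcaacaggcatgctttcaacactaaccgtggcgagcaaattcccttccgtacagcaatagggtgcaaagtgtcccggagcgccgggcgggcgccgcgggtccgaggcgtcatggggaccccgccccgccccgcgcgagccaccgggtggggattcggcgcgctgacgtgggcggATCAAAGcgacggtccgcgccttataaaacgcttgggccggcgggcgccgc
Wnt9a (chr11:59306680-59306929, plus strand): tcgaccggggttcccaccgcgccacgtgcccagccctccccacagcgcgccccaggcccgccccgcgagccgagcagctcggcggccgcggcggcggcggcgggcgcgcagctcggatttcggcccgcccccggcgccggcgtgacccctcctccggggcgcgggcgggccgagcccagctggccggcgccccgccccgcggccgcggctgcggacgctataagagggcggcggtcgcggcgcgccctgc
Axin2 (chr11:108920099-108920348, plus strand): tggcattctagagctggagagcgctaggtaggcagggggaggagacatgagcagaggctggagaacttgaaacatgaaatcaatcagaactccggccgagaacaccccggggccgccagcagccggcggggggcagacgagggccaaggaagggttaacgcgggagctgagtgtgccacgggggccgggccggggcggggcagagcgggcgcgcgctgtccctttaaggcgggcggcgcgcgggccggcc
Nkd2 (chr13:73847632-73847881, minus strand): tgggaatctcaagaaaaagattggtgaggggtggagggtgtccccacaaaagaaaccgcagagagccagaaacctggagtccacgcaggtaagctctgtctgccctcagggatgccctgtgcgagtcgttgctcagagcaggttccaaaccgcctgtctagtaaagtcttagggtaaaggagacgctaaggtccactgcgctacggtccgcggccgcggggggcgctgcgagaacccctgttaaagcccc
Wnt11 held 1 match, ATCAAAG, whose first base lies 51 bases before the start, and the other 3 windows held 0. A further RefSeq window of Wnt11, inside the gene (chr7:98838595-98838844), held 0 and is not shown. The window of Wnt6, a ligand that fell, held 0 too. RefSeq windows were found for 34 of the 54 members, 41 windows in all, and 5 of these held the motif (12.2%), against 4874 of the 32851 windows of this length over the genome (14.8%). The letters are a description of these windows, and motif matches outside them were not searched.

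Of the 54 genes, 34 passed the filter on low counts and were tested. Between 4% STEM and 4% horse serum, 11 of them were higher with STEM and 5 lower with an adjusted p no greater than 0.05 in edgeR, 16 called genes in all. Over all 14175 genes tested, 36.4% were called, 18.9% higher and 17.4% lower with STEM. The genes that rose were Wnt9a, Wnt11, Wnt4, Fzd6, Fzd9, Fzd2, Sfrp2, Lgr5, Axin2, Nkd2 and Axin1, and those that fell were Wnt6, Fzd5, Fzd4, Dkk2 and Dkk3. The 6 STEM libraries and the 6 horse serum libraries did not overlap for 11 of the 34, where 17.2% of all tested genes did not overlap. The median log2 fold change of the 34 was 0.08, and that of all tested genes 0.01.

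Library totals ran from 13285472 to 24536264 counts. Levels are given as CPM, counts scaled by each library's TMM-adjusted total. Horse serum library 6 stood apart from the other 5 of its group. It was above all of them for 17 of the 34 members (against 35.82% of all tested genes) and below them for 6 (17.65%, against 33.15%). Left out, it took the called members from 16 to 23, 16 higher and 7 lower, where 50.8% of all genes tested were then called, 26.3% higher and 24.5% lower. The members without overlap went from 11 to 17 of 34, and the share of all tested genes without overlap from 17.2% to 33.3%. In that library the summed level of 18 fused-myotube markers was 8563 CPM, against 18900 to 20530 in the other horse serum libraries and 14730 to 18780 with STEM, and each of the 18 was lower than in the other 5. Of these markers 4 were called between the groups, 2 higher and 2 lower, and 15 without library 6, 2 higher and 13 lower, with a median log2 fold change of -0.28. The sum of 11 markers of undifferentiated or cycling myoblasts lay at 1120 to 1426 CPM in horse serum libraries 1 to 5, 1327 in library 6 and 767.4 to 852.3 with STEM. Of the 10 tested 7 were called, all lower, where 17.4% of all tested genes were called lower. Pax7 (log2 fold change -0.04), Myod1 (0.03) and Ccnb1 (-0.14) were not called. Fibroblast-like markers summed to 19.67 to 27.97 CPM in horse serum libraries 1 to 5, 32.39 in library 6 and 35.5 to 39.17 with STEM. Here Dpt and Pi16 were higher, Dcn (log2 fold change -0.13, adjusted p = 0.552) and Pdgfra (0.41, adjusted p = 0.112) were not called, Pdgfra was called higher without library 6 (0.67, adjusted p = 2.48e-06), and Lum, Thy1 and Tcf21 stayed at 3 counts or fewer in every library. The macrophage markers Ptprc, Adgre1, C1qa and Lyz2 and the endothelial markers Pecam1, Kdr and Emcn were at that floor too. The macrophage marker Cd68 was tested and not called, and no endothelial marker could be tested. Csf1r passed the filter without library 6 and was then higher with STEM (log2 fold change 1.45, adjusted p = 0.00234 in edgeR). It had at most 9 counts per horse serum library and 6 to 30 per STEM library. Csf1r thus reached the filter through its STEM libraries and could hardly have been tested without differing. Fewer cells of a type and less RNA per cell cannot be told apart in such libraries, and the part these markers have in the Wnt values was not tested.

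**Figure D1:**
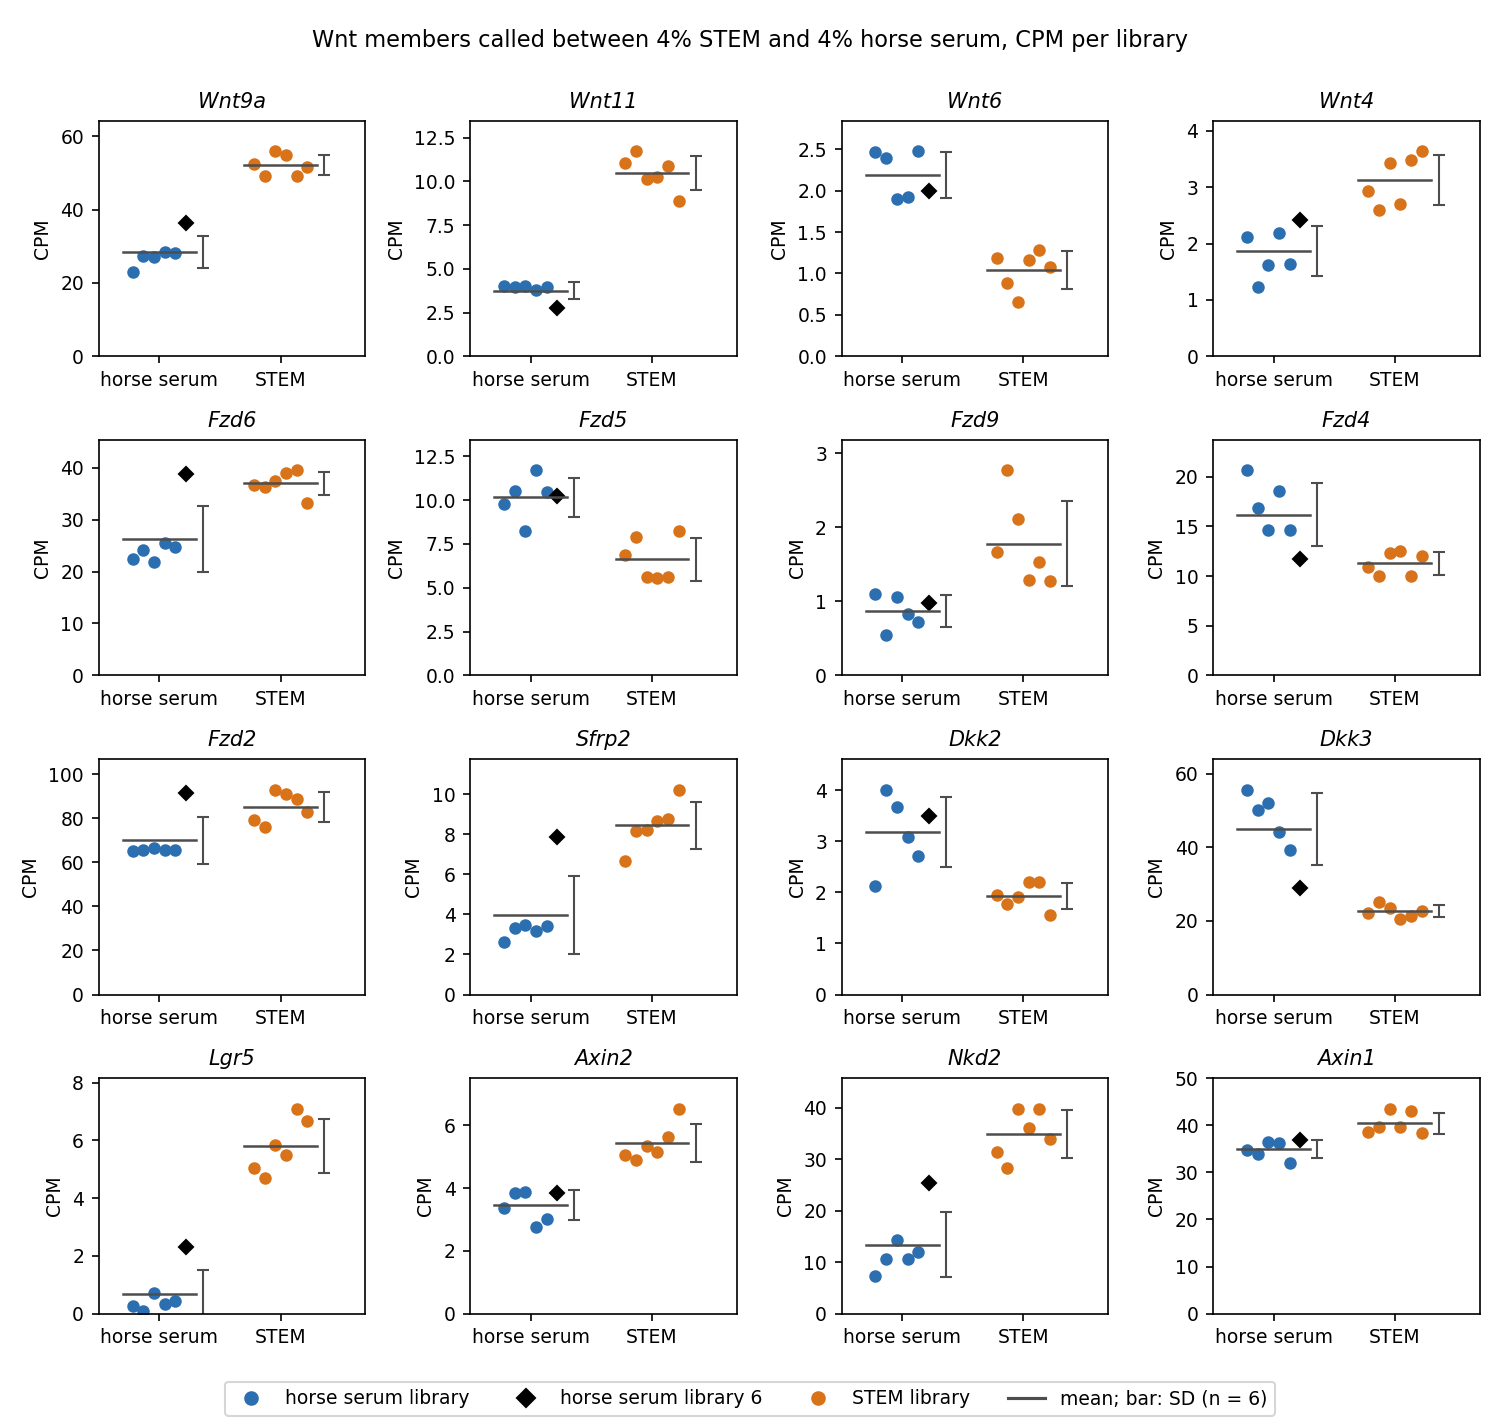
Level in CPM of the 16 called genes, with each point a library, the line the mean and the bar the SD (n = 6 per group), and horse serum library 6 drawn as a black diamond. The lower end of the SD bar of Lgr5 in horse serum is cut off at 0. Library 6 sits near the STEM libraries for Fzd6, Fzd2 and Sfrp2 and between the groups for Lgr5, Nkd2 and Dkk3.

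Of the Wnt ligands, 9 of 19 were tested and 4 were called, Wnt9a, Wnt11 and Wnt4 higher and Wnt6 lower. That is 44.44% of those tested, against 36.4% of all tested genes. Wnt9a (ENSMUSG00000000126, chromosome 11, 59306928 to 59333552 of GRCm38), a ligand known from joint and blood stem cell development, had the highest level per length of these 4. Its level was 22.9, 27.7 and 36.4 CPM in horse serum (lowest, median and highest library) and 49.0, 52.0 and 55.9 CPM with STEM. The groups did not overlap, and the highest horse serum value was that of library 6. On the log2 scale Wnt9a rose by 0.87 (standard error, SE, 0.086, adjusted p = 3.33e-06 in edgeR), a 1.83-fold difference, and without library 6 by 0.96. Wnt11 (ENSMUSG00000015957, chromosome 7, 98835112 to 98855195), a ligand of the polarity branch that orients elongating muscle fibres in the embryo, ran at 2.77, 3.96 and 4.04 CPM in horse serum against 8.89, 10.6 and 11.7 CPM with STEM. Here library 6 was the lowest of all 12 and the other 5 horse serum libraries were close together. The log2 fold change of Wnt11 was 1.49 (SE 0.11, adjusted p = 2.1e-07), 2.81-fold on 51 to 66 counts per horse serum library and 132 to 271 per STEM library.

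Wnt4 (ENSMUSG00000036856, chromosome 4, 137277489 to 137299726), known in kidney and gonad and able to drive myogenic differentiation, went from 1.24, 1.88 and 2.41 CPM to 2.59, 3.18 and 3.64 CPM. Its STEM libraries all lay above the horse serum libraries, by a small gap to library 6. The log2 fold change was 0.72 (SE 0.17, adjusted p = 0.00326), resting on as few as 16 counts. Wnt6 (ENSMUSG00000033227, chromosome 1, 74771892 to 74785322), an ectodermal signal to the early somite, went the other way, from 1.91, 2.20 and 2.48 CPM in horse serum to 0.658, 1.12 and 1.29 CPM with STEM. The groups did not overlap here either, and library 6 lay among its own group. Wnt6 fell by 1.06 on the log2 scale (SE 0.17, adjusted p = 0.000256), on 10 to 29 counts per STEM library.

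The remaining 5 tested ligands were not called with 12 libraries. Wnt10a, a canonical ligand of skin and tooth, had the highest level per length among the ligands in horse serum, at 20.6, 27.5 and 36.1 CPM there and 31.2, 32.7 and 40.5 CPM with STEM. Library 6 was the highest horse serum library and the sole one that reached the STEM range, and the log2 fold change was 0.29 (adjusted p = 0.0554), or 0.38 without library 6 (adjusted p = 0.00274 in edgeR). Wnt10b, a canonical ligand known to favour muscle over fat formation, spread widely in both groups, with log2 fold changes of -0.52 (adjusted p = 0.126) and of -0.64 without library 6 (adjusted p = 0.0288). Wnt5b, of the polarity and calcium branch, likewise stood at -0.36 (adjusted p = 0.195) and at -0.51 without that library (adjusted p = 0.00914). For Wnt7b, a canonical ligand, the log2 fold change was -0.50 (SE 0.24, adjusted p = 0.109). Wnt5a, the textbook ligand of the polarity and calcium branch, had 0.03 (SE 0.17). The other 10 ligands (Wnt1, Wnt2, Wnt2b, Wnt3, Wnt3a, Wnt7a, Wnt8a, Wnt8b, Wnt9b and Wnt16) had at most 2 counts in any library, below the floor of 3 counts, so a difference was not detectable at this depth.

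Of the 10 frizzled receptors 9 were tested and 5 called, with Fzd9, Fzd6 and Fzd2 higher and Fzd5 and Fzd4 lower. The share called was 55.56%, against 36.4% of all tested genes. Fzd9 (ENSMUSG00000049551, chromosome 5, 135248938 to 135251230), a receptor known from bone-forming cells and the least expressed of the 9 per length in both groups, lay at 0.540, 0.905 and 1.10 CPM in horse serum and 1.28, 1.60 and 2.77 CPM with STEM. The groups did not overlap, but the counts were low, 7 to 19 per horse serum library. Fzd9 rose by 1.01 on the log2 scale (SE 0.23, adjusted p = 0.00349 in edgeR). Fzd6, a polarity receptor that orients hair follicles, ran at 21.9, 24.5 and 38.9 CPM in horse serum and 33.2, 37.0 and 39.5 CPM with STEM. The groups overlapped through library 6 alone, since the other 5 horse serum libraries did not exceed 25.5 CPM. The log2 fold change of Fzd6 was 0.49 (SE 0.12, adjusted p = 0.00532), and 0.64 without library 6.

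Fzd2, a receptor for Wnt5a and for canonical ligands, had the highest level per length of all tested members, with 65.1, 65.6 and 91.3 CPM in horse serum and 75.9, 85.9 and 93.1 CPM with STEM. Library 6 again fell inside the STEM range, and the other 5 lay between 65.1 and 66.5 CPM, below each STEM library. Its log2 fold change was 0.28 (SE 0.085, adjusted p = 0.0176). Fzd5 (ENSMUSG00000045005, chromosome 1, 64730558 to 64737751), a receptor for Wnt ligands in gut and eye, fell from 8.26, 10.4 and 11.7 CPM to 5.55, 6.24 and 8.22 CPM, groups that came close but did not overlap. The fall was 0.62 on the log2 scale (SE 0.12, adjusted p = 0.000999). Fzd4, the receptor for norrin and for Wnt ligands in blood vessels, went from 11.7, 15.8 and 20.6 CPM to 9.98, 11.5 and 12.5 CPM. Library 6 was the lowest horse serum library and lay among the STEM libraries. Fzd4 fell by 0.51 (SE 0.12, adjusted p = 0.00395).

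Fzd1, Fzd3, Fzd7 and Fzd8 were not called. Fzd1, a canonical receptor, shows how far a single library decided a value: horse serum libraries 1 to 5 lay between 37.7 and 47.2 CPM, the STEM libraries between 58.3 and 73.5 CPM, and horse serum library 6 at 107.0 CPM. With that library the log2 fold change was 0.24 (SE 0.23, adjusted p = 0.46) and without it 0.56 (SE 0.065, adjusted p = 8.55e-07 in edgeR). Fzd7, a receptor described on satellite cells, had medians of 58.1 and 53.0 CPM in horse serum and STEM, with a log2 fold change of -0.08 (adjusted p = 0.454). Fzd3, a polarity receptor of growing axons, had -0.07 (adjusted p = 0.54) and Fzd8, a canonical receptor, -0.19 (adjusted p = 0.163). Fzd10 had 0 counts in all 12 libraries. Of the 9 tested frizzled receptors 2 did not overlap with 12 libraries (17.2% of all tested genes) and 6 without library 6 (33.3% of all tested genes).

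The co-receptors Lrp5 and Lrp6, which pair with frizzled in canonical signalling, were not called. Lrp5 had the higher level per length, by less than the SD of either gene, and ran at 43.9, 64.1 and 70.4 CPM in horse serum and 50.6, 72.2 and 92.8 CPM with STEM. Library 6 was the lowest of the 12, and the groups overlapped broadly. The log2 fold changes were 0.21 for Lrp5 (adjusted p = 0.257) and 0.14 for Lrp6 (adjusted p = 0.108), and Lrp6 reached 0.18 without library 6 (adjusted p = 0.0244 in edgeR).

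**Figure D2:**
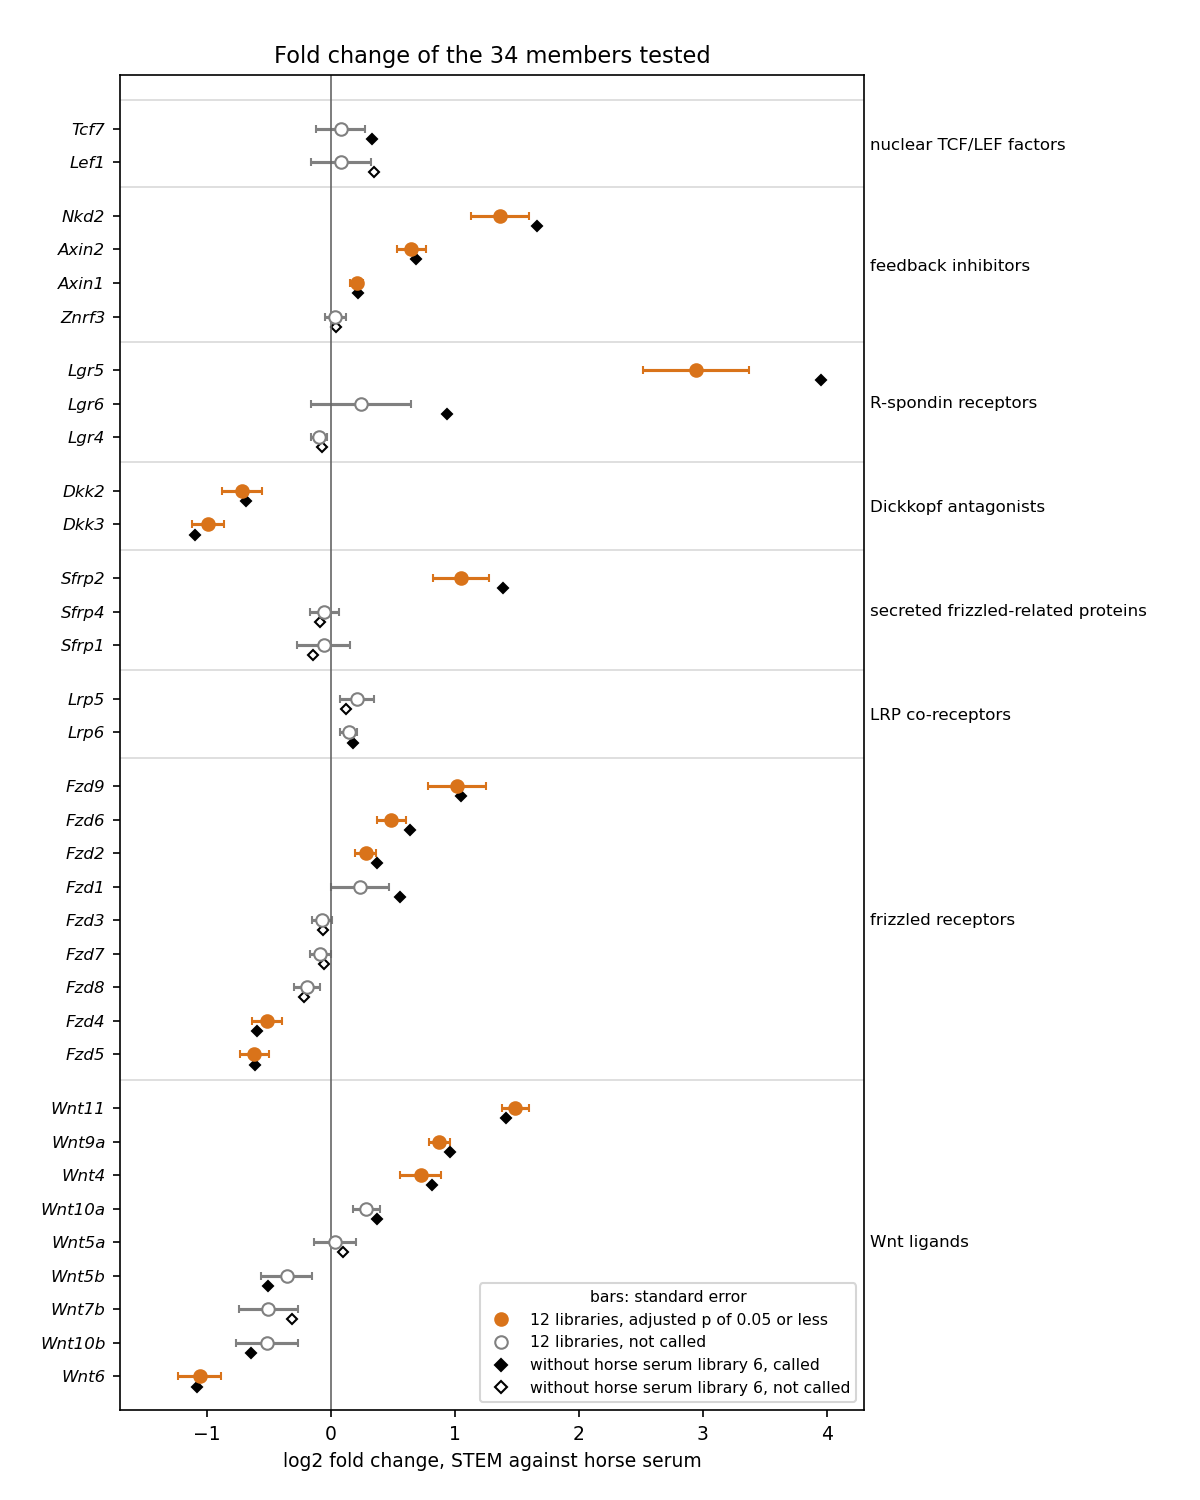
Log2 fold change of the 34 tested members, STEM against horse serum, by role. Circles and standard error bars are from all 12 libraries, filled where called, and diamonds are the values without horse serum library 6. Lgr5 lies farthest to the right at 2.94, and the 7 genes called without library 6 but not with all 12 libraries (Wnt10a, Wnt10b, Wnt5b, Fzd1, Lrp6, Lgr6 and Tcf7) show an open circle beside a filled diamond.

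Secreted frizzled-related proteins bind Wnt ligands outside the cell. Sfrp2 (ENSMUSG00000027996, chromosome 3, 83766321 to 83774316), made by connective tissue cells in many organs, ran at 2.60, 3.38 and 7.89 CPM in horse serum and 6.65, 8.43 and 10.2 CPM with STEM. All STEM libraries exceeded horse serum libraries 1 to 5, which reached 3.46 CPM, and 5 of 6 exceeded library 6. Sfrp2 rose by 1.05 on the log2 scale (SE 0.23, adjusted p = 0.00241 in edgeR), and by 1.39 without library 6. Sfrp4 and Sfrp1 were not called, with log2 fold changes of -0.05 (adjusted p = 0.758) and -0.06 (adjusted p = 0.851). Their groups overlapped, and Sfrp5 had at most 1 count.

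Both tested Dickkopf genes fell, where 36.4% of all tested genes were called, 17.4% lower with STEM. Dkk3 (ENSMUSG00000030772, chromosome 7, 112116017 to 112159057), a divergent member of the family that does not act on Lrp6 as Dkk1 does, ran at 29.1, 47.2 and 55.7 CPM in horse serum and 20.5, 22.5 and 25.2 CPM with STEM. Library 6 was the lowest horse serum library, still above each STEM library. Dkk3 fell by 0.99 on the log2 scale (SE 0.13, adjusted p = 5.47e-05 in edgeR), from 13.4 ± 2.91 to 6.72 ± 0.48 CPM per kb of exon (SD, n = 6). Dkk2 (ENSMUSG00000028031, chromosome 3, 132085292 to 132180304), an Lrp6 ligand that can block or mimic Wnt, went from 2.12, 3.29 and 4.01 CPM to 1.55, 1.93 and 2.20 CPM. A single horse serum library, not library 6, lay inside the STEM range. The log2 fold change of Dkk2 was -0.72 (SE 0.16, adjusted p = 0.00306), and Dkk1 and Dkk4, both Lrp6 antagonists, had at most 1 count.

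The R-spondins, which prolong Wnt signals by removing the ligase Znrf3 from the membrane, were not tested. Rspo3 had 0 to 8 counts per horse serum library and 2 to 11 per STEM library, Rspo1 and Rspo2 at most 5 and 6, and Rspo4 0. Of their receptors, Lgr5 had the largest rise of all 34 members. Lgr5 (ENSMUSG00000020140, chromosome 10, 115450311 to 115587780), a target of beta-catenin that marks stem cells of the gut and hair follicle, lay at 0.077, 0.372 and 2.31 CPM in horse serum and 4.71, 5.67 and 7.10 CPM with STEM. The highest horse serum value was that of library 6, with 45 counts where the other 5 had 1 to 10, while the STEM libraries had 80 to 124. Lgr5 rose by 2.94 on the log2 scale (SE 0.42, adjusted p = 0.000161 in edgeR), a 7.70-fold difference with library 6 and 15.5-fold without it. Each STEM library exceeded each horse serum library (exact permutation test of log2 CPM, two-sided, p = 0.00216, the lowest value possible with 6 against 6). Since it reached the filter on low counts through its STEM libraries, Lgr5 could hardly have been tested without differing.

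Lgr4 and Lgr6, the other receptors of R-spondins, were not called. Lgr4 had the highest level per length of the 3, at 30.8, 34.7 and 37.7 CPM in horse serum and 30.1, 32.4 and 35.8 CPM with STEM. The groups overlapped over most of their range, with a log2 fold change of -0.09 (adjusted p = 0.281). Lgr6 ran at 0.386, 0.705 and 3.02 CPM in horse serum and 1.05, 1.25 and 2.02 CPM with STEM. Library 6 was above all STEM libraries, while the other 5 reached 1.06 CPM. Its values with and without that library were 0.25 (adjusted p = 0.666) and 0.94 (adjusted p = 0.00468 in edgeR) on the log2 scale.

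Among the feedback inhibitors 4 of 6 were tested and 3 rose, each without overlap. Over all tested genes 36.4% were called, 18.9% higher with STEM, and 17.2% did not overlap. Nkd2 (ENSMUSG00000021567, chromosome 13, 73818534 to 73847631), which binds dishevelled and dampens the signal, lay at 7.40, 11.3 and 25.4 CPM in horse serum and 28.3, 34.9 and 39.8 CPM with STEM. Library 6 was highest in its group by far, with the other 5 at 14.3 CPM or less. Nkd2 rose by 1.36 on the log2 scale (SE 0.24, adjusted p = 0.000776 in edgeR), 2.57-fold, and 3.16-fold without library 6. Axin2 (ENSMUSG00000000142, chromosome 11, 108920349 to 108950783), a scaffold of the destruction complex and the usual readout of beta-catenin, went from 2.76, 3.60 and 3.88 CPM to 4.89, 5.25 and 6.53 CPM. Here library 6 lay among its own group, close to the top. The log2 fold change of Axin2 was 0.65 (SE 0.12, adjusted p = 0.00062), 1.57-fold, on 43 to 75 counts per horse serum library and 80 to 124 per STEM library.

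Axin1 (ENSMUSG00000024182, chromosome 17, 26138688 to 26195811), the constitutive scaffold, had the highest level per length of the 4 in both groups and moved least of the called members, from 32.0, 35.4 and 36.8 CPM to 38.4, 39.6 and 43.5 CPM. The gap between the groups was small, and the log2 fold change was 0.21 (SE 0.054, adjusted p = 0.00733). Znrf3, the ligase that removes frizzled receptors and is itself induced by Wnt, ran at 16.1, 18.0 and 20.0 CPM in horse serum and 15.3, 18.4 and 21.4 CPM with STEM. Its groups overlapped fully in the middle, with a log2 fold change of 0.04 (SE 0.085, adjusted p = 0.768). Nkd1 and the deacylase Notum, both targets of beta-catenin, were not tested, with at most 3 counts for Nkd1 and 2 to 13 in horse serum and 2 to 7 with STEM for Notum.

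Tcf7 and Lef1, nuclear partners of beta-catenin and also its targets, were not called. Tcf7 ran at 4.16, 5.54 and 11.3 CPM in horse serum and 5.81, 6.88 and 8.02 CPM with STEM, and Lef1 at 2.33, 2.89 and 6.15 CPM against 2.39, 3.66 and 4.96 CPM. In both genes library 6 was the highest of the 12. The log2 fold change of Tcf7 was 0.08 with all libraries (adjusted p = 0.774) and 0.34 without library 6 (adjusted p = 0.0254 in edgeR), and that of Lef1 0.08 (adjusted p = 0.822) and 0.35 (adjusted p = 0.107). Of the tested genes commonly read as canonical targets, Axin2, Nkd2 and Lgr5 were called and Znrf3, Tcf7 and Lef1 were not. Lgr5 reached the filter on low counts through its STEM libraries, and Nkd1 and Notum did not pass it. Whether the called targets differ from the uncalled ones was not tested.

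**Figure D3:**
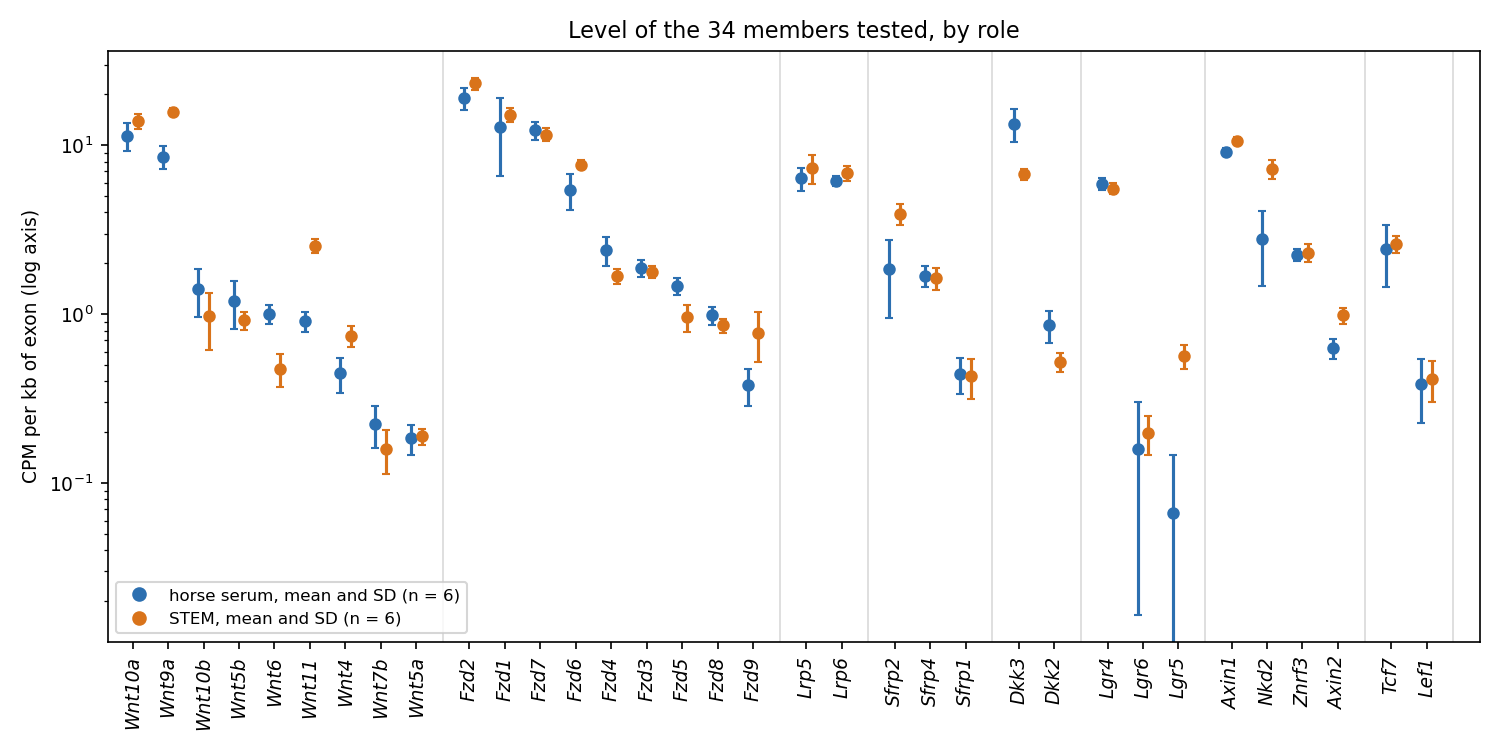
Level of the 34 tested members per kb of exon on a log axis, mean and SD of 6 libraries per group. From left to right stand Wnt ligands, frizzled receptors, LRP co-receptors, secreted frizzled-related proteins, Dickkopf antagonists, R-spondin receptors, feedback inhibitors and TCF/LEF factors, and the lower SD bar of Lgr5 in horse serum runs off the axis because the SD exceeds the mean. Fzd2 stands highest in both groups.

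Set side by side per kb of exon, the ligands split into a high pair and the rest. Wnt10a had 11.3 ± 2.13 CPM per kb in horse serum and Wnt9a 8.52 ± 1.33 (SD, n = 6), while the next ligand, Wnt10b, had 1.40 ± 0.44. With STEM the pair stood at 13.9 ± 1.42 for Wnt10a and 15.7 ± 0.85 for Wnt9a, neighbours whose SDs touched. Wnt11 moved from 0.908 ± 0.12 to 2.54 ± 0.24 and so from the sixth place of the 9 to the third, above Wnt10b and Wnt5b. Of the frizzled receptors, Fzd2 led with 19.1 ± 2.86 in horse serum and 23.3 ± 1.89 with STEM. Fzd1 and Fzd7 followed with 12.8 ± 6.26 and 12.3 ± 1.52 in horse serum, values that did not differ beyond their spread. Lgr5, in spite of its rise, reached 0.566 ± 0.09 CPM per kb with STEM, below the 5.53 ± 0.41 of Lgr4.

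The rest of the pathway was followed in a list of 117 further genes, of which 99 were tested and 34 called, 17 higher and 17 lower, at a median log2 fold change of 0.07. That is 34.34%, against the 36.4% called over all tested genes. Of 6 tested genes for secretion of Wnt proteins 2 were called (33.33%), both lower by a small amount. Wls, which carries Wnt proteins to the cell surface, went from 665 ± 23.8 to 554 ± 19.6 CPM (SD, n = 6), and Vps35, a retromer subunit that recycles Wls, from 657 ± 48.9 to 525 ± 9.97 CPM. Neither overlapped between the groups, with log2 fold changes of -0.26 (adjusted p = 0.000255) and -0.32 (adjusted p = 0.000237 in edgeR). Of 8 tested co-receptors and other receptors 4 rose, namely Ryk and Ptk7, which take part in polarity signalling (log2 fold changes 0.28 and 0.34), Lrp4, the agrin receptor of the neuromuscular junction (0.27), and Kremen1, a Dickkopf receptor (0.16). Both tested genes among the other secreted antagonists were called, where 36.4% of all tested genes were. Igfbp4 was higher (0.42) and Apcdd1 lower (-0.76), the latter not called without library 6 (adjusted p = 0.0573).

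Inside the cell, 7 of 25 tested genes of transduction and the destruction complex were called, 5 higher and 2 lower. That is 28.0%, against 36.4% of all tested genes. Dact2, a dishevelled-binding protein, rose by 0.92 (SE 0.17, adjusted p = 0.00055 in edgeR), and Gsk3b, the kinase of the complex, by 0.39 (SE 0.083). Frat2, a GSK3-binding protein, fell by 0.80 from a mean of 2.04 CPM. Beta-catenin itself, Ctnnb1, was not called, at 726 ± 71.2 CPM in horse serum and 780 ± 30.5 CPM with STEM (log2 fold change 0.10, adjusted p = 0.202, and 0.00204 without library 6). With all 12 libraries 5 of 18 tested nuclear partners were called (27.78%), all lower. Over all tested genes 36.4% were called, 17.4% lower. The median log2 fold change of the 18 was 0.06. The 5 were Tbl1xr1 (-0.29), a corepressor exchange factor, the Groucho corepressors Tle1 (-0.38) and Tle2 (-0.40), Tbl1x (-0.25) and Ctnnbip1 (-0.20). The other Tle genes listed, Tle3 (0.07), Tle4 (0.20) and Tle5 (-0.04), were not called with or without library 6. Without library 6, 8 of the 18 tested nuclear partners were called, 3 higher and 5 lower. Over all genes tested 50.8% were then called, 26.3% higher and 24.5% lower. In the polarity and calcium branch 7 of 24 were called (29.17%), 3 higher and 4 lower. Daam2, a formin that links dishevelled to actin, fell by 0.67 (SE 0.089), while Scrib and Invs, proteins of cell polarity, rose by 0.26 and 0.41.

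Other genes often used to read out beta-catenin went both ways, with 4 of 16 higher and 3 lower. The share called was 43.75%, against 36.4% of all tested genes. Ccnd1, cyclin D1, fell by 1.88 on the log2 scale, from 64.5 ± 12.6 to 17.5 ± 1.51 CPM (SD, n = 6, adjusted p = 9.48e-08 in edgeR), and the groups did not overlap. Jun, a subunit of AP-1, rose by 0.48 (SE 0.060). Kremen1, Tbl1x, Ctnnbip1, Ctnnb1, Tle3, Tle4 and Tle5 were named after their values were seen. Without horse serum library 6 the list had 49 called genes of 99, 29 higher and 20 lower, where 50.8% of all tested genes were called.

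**Figure D4:**
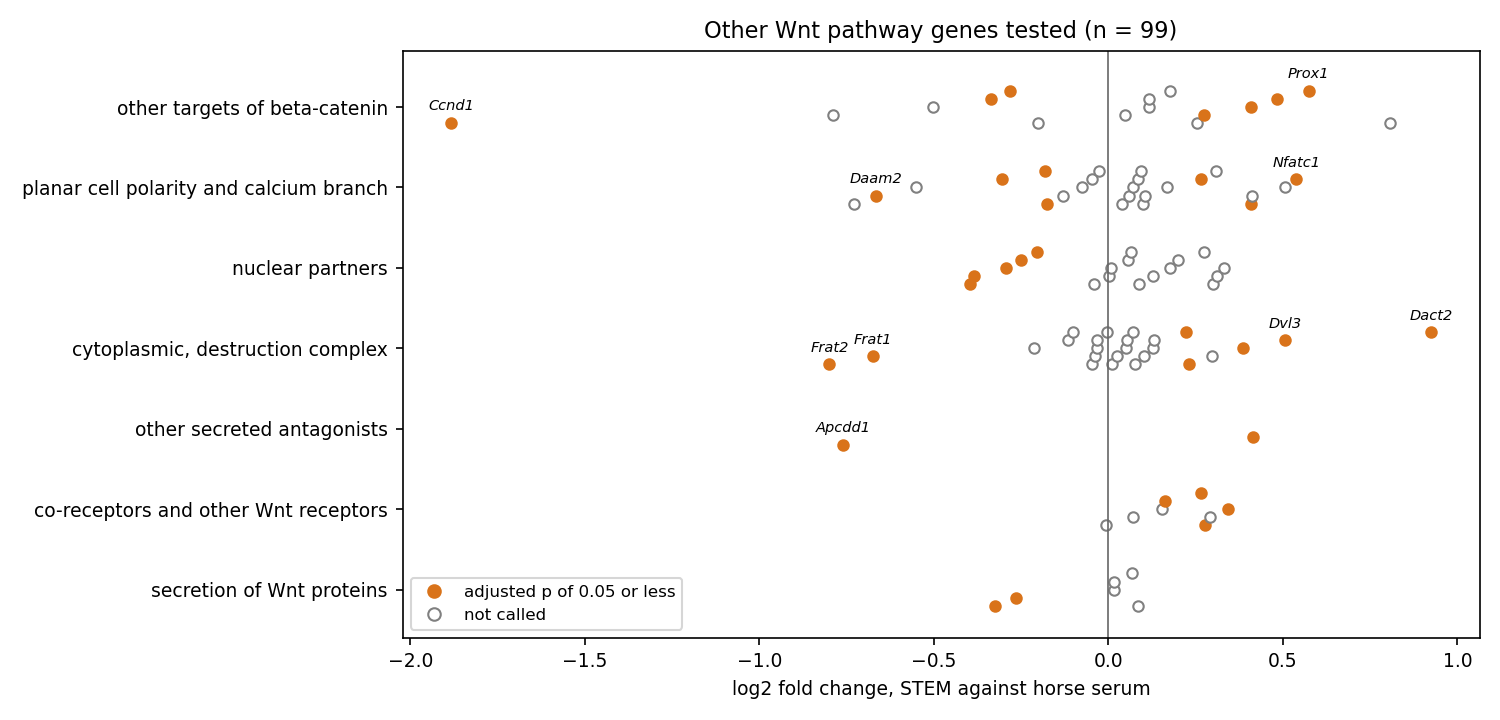
Log2 fold change of the 99 tested pathway genes outside the member set, by sublist, with filled points for called genes. Values and calls are from all 12 libraries. Ccnd1 lies far to the left at -1.88, the 5 called nuclear partners lie left of 0, and the 4 called receptors lie right of it.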

How the data were processed

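The authors deposited raw read counts per Ensembl gene for 12 libraries, without normalization. The submitters' processing notes name STAR 2.7.3a, featureCounts 1.6.3, DESeq2 1.26.0 and GRCm38. The annotation release and strand setting are not given in the sources used here. Libraries were grouped by their labels. Symbols, coordinates and exon lengths were taken from GENCODE on GRCm38, and 260 listed genes with 0.00268% of the counts were not in it. Members and gene lists were chosen with earlier results of these data known.

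Counts of all genes were fitted with edgeR 4.0.16 (TMM, filterByExpr, robust quasi-likelihood test) in R 4.3.3, adjusted by Benjamini-Hochberg over 14175 genes and called at 0.05 or less. Log2 CPM used a prior count of 2. The standard error is the absolute log2 fold change over the square root of F. A gene at 3 counts or fewer in every library was taken as at the floor, which covers counting error only. On simulated data with 14175 genes, edgeR recovered 93 of 100 genes changed 4-fold and 87 of 100 changed 2-fold, with 6.25% of calls false. In that simulation no other gene changed and no library stood apart, whereas 36.4% of genes were called here. Its rates may therefore not hold for these data. Alternatives were DESeq2 1.42.0, limma-voom (limma 3.58.1), other scalings and filters, thinning to the lowest total, a threshold of 0.01 and leaving out each library. Between library pairs of a group, chi-square per degree of freedom was 3.29 to 68.5, so no library was a repeat deposit. Exons of 10 members overlap a gene on the other strand, whose counts reached 16 per library beside Fzd6, 10 beside Lef1 and 3 or fewer beside the others.

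Every member could be named. Library values are given for called members without overlap or with a log2 fold change of 0.5 or more in either direction, for the highest level per length of each role and for the feedback targets and R-spondin receptors. Of the other pathway genes, at most 3 called genes with the lowest p-values per sublist were to be named. Kremen1, Tbl1x, Ctnnbip1, Ctnnb1, Tle3, Tle4 and Tle5 were added after their values were seen. A gene that meets the rule is not reported here. Table entries of RefSeq were used for promoters, and genes without an entry have no sequence here.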

Additional observations from a re-analysis of the deposited data

Results flagged for a closer look

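In log2 CPM, 9 of the 68 groups of 6 libraries held a library whose gap to its nearest neighbour exceeded Dixon's critical share of the group's range, which chance does for about 1 in 20 groups. In 8 of the 9 it was horse serum library 6. That library was the highest of its group for Fzd1 (107.0 CPM), Fzd2 (91.3 CPM), Fzd6 (38.9 CPM), Sfrp2 (7.89 CPM), Lef1 (6.15 CPM) and Wnt7b (1.69 CPM). It was the lowest for Lrp5 (43.9 CPM) and Wnt11 (2.77 CPM). The remaining case was Fzd7 in STEM library 10, the lowest of its group at 44.0 CPM. The groups of Fzd2, Fzd6 and Sfrp2 overlapped through library 6, while those of Wnt11 did not overlap with or without it. The low fused-myotube markers of library 6 accompany these values, and their part in them was not tested.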

How the results depend on the processing

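Of 676 values of single members under the alternatives, 658 kept their direction and their side of the threshold. The 16 called members kept the call in every scaling, filter, tool, thinning and left-out library that gave a value for them. Fzd9 and Lgr5 did not pass the filter of at least 10 counts in every library, and Fzd2 was the member lost at an adjusted p of 0.01, where 15 were called. The number of called members ran from 14 to 17 over the other settings and from 16 to 23 with a library left out, the highest without horse serum library 6. At an adjusted p of 0.01, 20 other pathway genes were called instead of 34, and 3266 of all genes instead of 5155. With each library left out the pathway count ran from 23 (without STEM library 11) to 49 and the count of all genes from 4459 to 7245, both highest without library 6. Uncalled members gained a call 9 times, in 7 of them without library 6, beside Wnt10b without STEM library 8 (-0.71) and Wnt10a in thinned counts (0.31). A sign turned 9 times, in uncalled members with a library left out, whose log2 fold changes then ran from -0.0578 to 0.101 for Wnt5a, -0.125 to 0.0166 for Sfrp4, -0.188 to 0.0472 for Sfrp1, -0.0140 to 0.0807 for Znrf3, -0.0132 to 0.335 for Tcf7 and -0.0283 to 0.352 for Lef1. The median log2 fold change of all genes was between -0.01 and 0.03 under each scaling. For untested members, depth is the limit, since the highest count of any of them was 13. No paired analysis was possible because the groups share no replicate numbers.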

Other observations

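Wnt6 and Wnt10a are neighbours on chromosome 1, with Wnt6 from 74771892 to 74785322 and Wnt10a from 74791516 to 74804179 (GRCm38). Their values went in opposite directions. Wnt6 fell by 1.06 on the log2 scale with STEM, while the log2 fold change of Wnt10a was 0.29 with all libraries (adjusted p = 0.0554 in edgeR) and 0.38 without horse serum library 6 (adjusted p = 0.00274). The difference between the 2 genes was not tested.

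The TCF/LEF letters were also found in windows before the starts of Fzd7, Lef1, Wnt5b and Dkk1. Of these, Fzd7 and Lef1 were not called with or without horse serum library 6, Wnt5b was called lower without it, and Dkk1 had 0 counts in all libraries. For Lef1 and Wnt5b the window with the letters lay inside the gene, before an alternative start. Their other windows, among them those next to the 5′ end of the gene, held no match.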
